A study of Triticum aestivum with 16 samples.

Results

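SB33 is 1 of 8 recombinant inbred lines of bread wheat (Triticum aestivum) bred from the cross of Seri M82 with Babax. Its flag leaves, the uppermost leaves of the plant, are described here from their transcript levels. The 2 SB33 arrays, 1 for each field replicate, were compared with the 14 arrays of the other 7 lines (SB15, SB53, SB80, SB138, SB146, SB165 and SB189), which make 16 arrays in all with 2 for each line. All 8 lines were field-grown with irrigation in the 2007 season and sampled between 6 and 8 days after flowering. No treatment was applied, and the groups are told apart by line. Any effect of field position, sampling day or RNA handling that went with a line cannot be told apart from it. The series concerns how genotypes differ in water soluble carbohydrate metabolism, but the labels give no carbohydrate level or class for any line. They call the replicates biological and do not say how many plants went into each. SB33 was set against the mean of the other 7 line means, over 61115 probe sets with the 175 control probe sets left out. The description rests mainly on the 19740 probe sets with a mean of 5 or more over the 16 arrays on the log2 signal scale, called bright below.

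A recombinant inbred line is selfed until it carries, at most loci, the allele of a single parent, so sister lines differ in which parent's segment they inherited at each locus. Bread wheat holds several related subgenomes, and most genes exist in several near-identical copies, which the probes of one set may not tell apart. In the weeks after flowering the flag leaf is the main source of sugar for the filling grain, and wheat also stores spare carbon as fructan, a polymer of fructose that exohydrolases break down again. An array probe set is named by its transcript cluster (Ta.3242, for example) and a member number, and names that end in _s_at, _x_at or _a_at mark sets whose probes may match several transcripts. Probe sets of 1 cluster share sequence and are not independent. Most probe sets have no gene name in the annotation used here, and such sets are given by their identifiers with no role.

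The table has a floor at 2.25, where 37.7% of all values lie, and reaches 16.67. Values at the floor give no order between lines. The 2 SB33 arrays correlated at 0.99151 over the bright probe sets, and their median absolute difference was 0.148, against 0.106 to 0.163 in the other lines. The 18S rRNA control was uneven between them, at 6.12 and 9.12 in SB33, inside the range of 5.11 to 12.09 in the other arrays. The 3' probe set of the bright ubiquitin control exceeded the middle one by 0.432 and 0.207 in SB33, against -0.00838 to 0.365 in the other 14 arrays, and the SB33 mean of 0.319 was inside the range of the other line means, 0.0598 to 0.344. Hybridisation controls averaged 9.746 and 10.77 in the SB33 arrays, inside the range of 9.726 to 11.37 in the other arrays. Poly-A spike controls averaged 9.505 and 9.132 in SB33, and the other line means ran from 8.815 in SB80 to 10.12 in SB165. The part of these controls in the results was not tested. Some markers of green leaf were bright in SB33. The Rubisco large subunit gene rbcl reached 16.51. The gene petC, which encodes the Rieske iron-sulphur protein of the cytochrome b6f complex, was at 15.30. Of 37 probe sets for 7 photosynthesis and carbon fixation genes, 17 were bright and 20 dim, with a highest 16-array mean of 4.73 among the dim ones. Each of the 7 genes had a bright set. Of 18 probe sets for grain endosperm genes, 16 were dim in all lines, with a highest 16-array mean of 2.56. The 2 bright ones were Ta.27777.1.S1_at for avnlb, at 11.57 in SB33 and 11.56 in the other lines, and Ta.1315.1.S1_at for WMAI-1, at 5.64 in SB33 and 5.79 in the other lines. With 2 arrays in SB33, the number of arrays limits the precision, and in whole leaves fewer cells of a type and less RNA per cell cannot be told apart.

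The first comparison asked which transcripts set SB33 apart from the mean of the other lines. Of the bright probe sets, 220 differed at a limma adjusted p under 0.05, which is 1.11% of those tested. In SB33, 147 were higher (0.745%) and 73 lower (0.37%), so 66.8% of the differences were toward a higher signal, while the median difference over all bright probe sets was -0.00041. Over all 61115 probe sets 361 differed (0.591%), with 234 higher (0.383%) and 127 lower (0.208%), and 141 of the 361 were dimmer than the limit of 5. The median size of the 220 bright differences was 0.975 on the log2 scale. Of these, 28 were under 0.5, 107 were of at least 1 (72 higher and 35 lower), and 36 were of at least 2 (22 higher and 14 lower). The test measures the spread between the 2 field replicates of a line, and with the 7 other line means as the units of spread 39 bright probe sets passed, 8 of them among the 220. When the fit was restricted to the bright probe sets 417 passed, 216 of them among the 220.

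**Figure D1:**
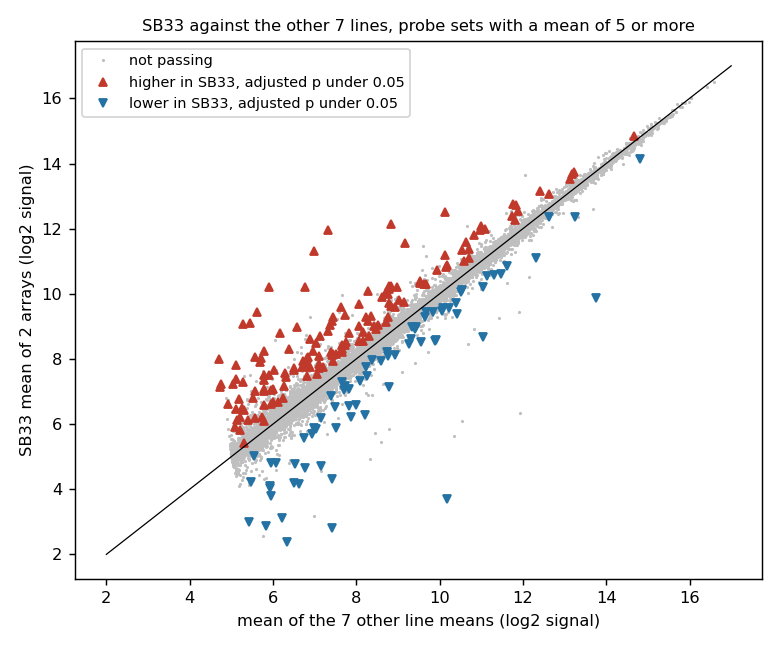
Each point is 1 of the 19740 bright probe sets, with the mean of the 2 SB33 arrays on the vertical axis against the mean of the 7 other line means on the horizontal axis, both as log2 signal. Red triangles mark the 147 probe sets higher and blue triangles the 73 lower in SB33 at an adjusted p under 0.05, and most grey points lie close to the line of equal signal, with Ta.14507.2.S1_at at 3.69 against 10.17 the farthest below it.

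In most of these transcripts the SB33 arrays were not apart from all others. Among the 147 higher probe sets SB33 was the highest line in 71, and among the 73 lower ones it was the lowest line in 40. Both SB33 arrays lay outside all 14 other arrays in 51 of the 220 (34 above and 17 below), and in the remaining 169 the SB33 arrays overlapped with the others. Counted over all bright probe sets without a test, both SB33 arrays lay above all 14 others in 181 (0.917%) and below all 14 in 78 (0.395%). SB33 also had the fewest bright calls of the 8 lines when each was set against its own other 7, at 220 (1.11%), against 359 (1.82%) for SB53, the next lowest, and 1242 (6.29%) for SB80, the highest. Those 8 contrasts use the same 16 arrays and are not independent.

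In pairs with each other line, p-values were adjusted over all probe sets and the 7 pairs together. Of the bright probe sets, 1034 (5.24%) differed between SB33 and at least 1 line, and 4 (0.0203%) differed between SB33 and all 7 lines. Of those 4, 3 were lower and 1 was higher in SB33, and their arrays did not overlap with any array of another line. Among the 220 probe sets of the first comparison, SB33 differed from 1 line in 3, from 2 in 49, from 3 in 43, from 4 in 61, from 5 in 48 and from 6 in 12.

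Ta.14507.2.S1_at was the largest difference of SB33. Its signal was 3.65 and 3.73 in the SB33 arrays, against a lowest of 9.43, a median of 10.26 and a highest of 10.37 in the other 14 arrays. Both SB33 arrays were far below every other array, and the other 7 lines lay close together. The difference was -6.48 ± 0.147 (log2, SE; 89-fold lower; limma adjusted p = 6.46e-07), and it passed under every alternative that was run. Another probe set of the cluster, Ta.14507.1.S1_at, was at 9.78 and 9.97 in SB33, with a range of 9.74 to 10.13 in the other arrays, and its difference was -0.09 (limma adjusted p = 1). The third bright one, Ta.14507.3.S1_a_at, was at 7.67 and 8.04 in SB33, below the range of 8.16 to 8.59 in the other arrays, and its difference was -0.52, short of the threshold (limma adjusted p = 0.168). The low signal of SB33 was thus seen at full size on 1 of the 3 bright probe sets of this cluster, and a dim set, Ta.14507.3.S1_at, differed by -0.30 (limma adjusted p = 1).

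Cluster Ta.11922 gave both other probe sets that were lower in SB33 than in each of the 7 lines. Ta.11922.1.S1_at was at 6.52 and 6.65 in SB33, against a lowest of 7.39, a median of 8.00 and a highest of 8.42 in the other arrays, a difference of -1.41 ± 0.126 (limma adjusted p = 0.00206). Ta.11922.3.S1_a_at was at 4.06 and 4.41 in SB33, against 5.18, 5.49 and 5.66 as the lowest, median and highest of the other arrays, a difference of -1.24 ± 0.0871 (limma adjusted p = 0.000555). On both sets the SB33 arrays lay below the full range of the others. The 1 probe set higher in SB33 than in every line was Ta.27970.1.A1_at, at 7.68 and 7.84 in SB33, against a lowest of 6.72, a median of 6.92 and a highest of 7.18 in the other arrays. Its difference was 0.86 ± 0.0812, or 1.82-fold higher in SB33 (limma adjusted p = 0.00255), and the other 7 lines were again close to each other. Ta.11922 and Ta.27970 carry no gene name here, and these sets were singled out after their values were seen.

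**Figure D2:**
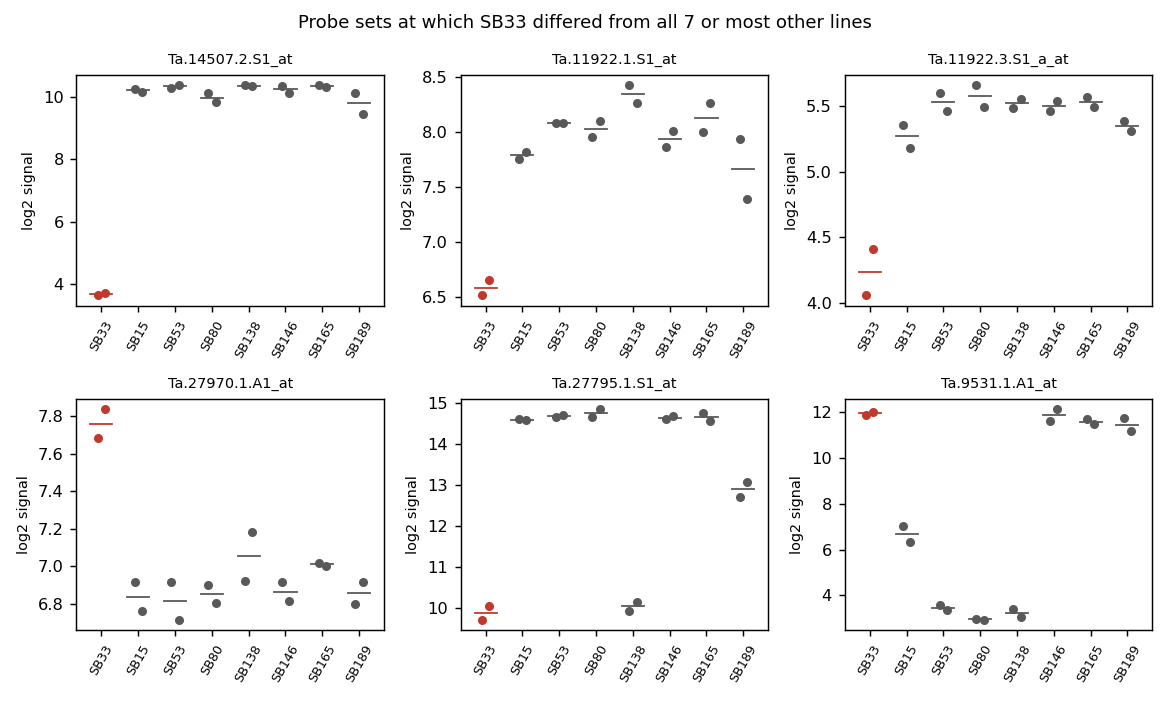
Log2 signal of each of the 16 arrays for 6 probe sets, with SB33 in red at the left of each panel, the other 7 lines in grey, and a short line at the mean of the 2 arrays of a line; the vertical axes do not start at 0. The SB33 arrays lie outside all others for Ta.14507.2.S1_at, both Ta.11922 sets and Ta.27970.1.A1_at, SB138 lies with SB33 for Ta.27795.1.S1_at, and SB146, SB165 and SB189 lie with SB33 for Ta.9531.1.A1_at.

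Another 9 probe sets, chosen after their values were seen, passed in the first comparison and in pairs with 6 of the 7 lines. In 5 of the 9 both SB33 arrays still lay outside all 14 others, and a pair that did not pass does not show that the lines are alike. SB15 was the line whose pair did not pass for Ta.1622.1.S1_at, which was at 8.44 and 8.45 in SB33, 8.52 and 8.59 in SB15, and 9.15 to 9.62 in the arrays of the other lines. SB15 was also that line for Ta.2983.1.S1_a_at, where SB33 at 9.52 and 9.83 and SB15 at 9.89 and 9.52 stood above the remaining lines. For Ta.23053.3.S1_x_at it was SB53, with SB33 at 11.63 and 11.49, SB53 at 12.06 and 11.88, and the highest array of the remaining lines at 9.05. Its difference from the mean of the other 7 lines was 2.40 ± 0.0787 (limma adjusted p = 3.74e-06). SB165 lay with SB33 on Ta.8574.2.A1_at, at 12.47 and 12.58 in SB33 and 12.55 in both SB165 arrays, while the highest array of the remaining lines was at 12.12.

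The largest rises in SB33 were shared with some lines and absent from others. Ta.9531.1.A1_at was at 11.88 and 12.02 in SB33, against a lowest of 2.94, a median of 6.67 and a highest of 12.12 in the other arrays. The arrays of SB146, SB165 and SB189 lay between 11.16 and 12.12 and overlapped with SB33, SB15 was at 7.01 and 6.32, and SB53, SB80 and SB138 lay between 2.94 and 3.57. The difference from the mean of the other lines was 4.64 ± 0.211 (24.9-fold higher; limma adjusted p = 3.53e-05), and in pairs SB33 was higher than SB15, SB53, SB80 and SB138.

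Cluster Ta.3242 had the same grouping of lines, with SB146, SB165 and SB189 nearest to SB33, SB15 between, and SB53, SB80 and SB138 low. Ta.3242.1.A1_at was at 11.35 and 11.28 in SB33, 10.73 to 11.04 in the arrays of SB146, SB165 and SB189, 6.41 and 6.17 in SB15, and 2.79 to 3.94 in SB53, SB80 and SB138. Both SB33 arrays were above all 14 others, though by less than 1 unit over the nearest 3 lines, and none of those 3 pairs passed. The difference from the mean of the other lines was 4.33 ± 0.215 (limma adjusted p = 5.85e-05), and Ta.3242.3.A1_at (4.28) and Ta.3242.1.A1_a_at (3.46) rose with it. A further member of the cluster, Ta.3242.2.S1_at, was at 9.37 and 9.69 in SB33 and between 9.34 and 9.67 in the other arrays (difference 0.03, limma adjusted p = 1).

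Other large rises grouped SB33 with other lines. Ta.30560.1.S1_at was at 8.92 and 9.25 in SB33, near SB15 (9.65 and 9.46) and SB146 (9.12 and 9.31), against 2.49 to 3.39 in the arrays of SB53, SB80, SB138 and SB165 and 6.74 and 7.29 in SB189. Ta.17485.1.S1_at was at 7.83 and 8.19 in SB33, near SB138 (7.95 and 7.70) and SB189 (7.55 and 7.56), and between 2.39 and 5.18 in the arrays of the other lines. These sets, TaAffx.52869.1.S1_s_at and cluster Ta.4381 were also chosen after their values were seen. TaAffx.52869.1.S1_s_at, at 11.87 and 12.43 in SB33, was as bright in SB53, SB80 and SB189 and no brighter than 8.13 in any array of SB15, SB138, SB146 and SB165. In cluster Ta.4381 SB33 lay with SB53, SB80 and SB146, and its set Ta.4381.2.S1_a_at was 2.71 ± 0.263 above the mean of the other lines (limma adjusted p = 0.00286).

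Transcripts that fell in SB33 had the same kind of pattern. Ta.1112.1.S1_at was at 2.80 and 2.83 in SB33, against a lowest of 2.69, a median of 9.27 and a highest of 10.22 in the other arrays. SB53 (2.80 and 2.69) and SB80 (2.86 and 3.65) were as low as SB33, SB165 was uneven at 7.83 and 5.34, SB189 had a mean of 9.27, and SB15, SB138 and SB146 lay between 9.89 and 10.22. The difference was -4.61 ± 0.493 (limma adjusted p = 0.0046). Ta.6128.1.S1_at was at 2.25 and 2.49 in SB33, near the floor as in SB138 and SB189, against 7.51 to 8.02 in the arrays of the other 5 lines (difference -3.97, limma adjusted p = 2.39e-06), and it was chosen after its values were seen.

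The brightest of the large differences was Ta.27795.1.S1_at, singled out after its values were seen. It was at 9.72 and 10.04 in SB33 and at 9.93 and 10.15 in SB138, which overlapped. SB189 was intermediate at 12.72 and 13.08, and the arrays of the other 5 lines lay between 14.57 and 14.84, among the brightest signals of the table. The difference from the mean of the other lines was -3.87 ± 0.112 (14.6-fold lower, limma adjusted p = 2.39e-06), and in pairs SB33 was lower than every line but SB138.

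Cluster Ta.14571, noticed in the results, was the only one with bright calls in both directions. Ta.14571.1.S1_at was at 9.38 and 9.52 in SB33 and 8.97 and 9.64 in SB146, against 3.92 to 6.88 in the arrays of the other 6 lines, a difference of 3.83 (limma adjusted p = 0.00291). Ta.14571.2.A1_at went the other way, at 3.12 and 3.15 in SB33 and 3.12 and 3.13 in SB146, against 5.93 to 7.18 in the other 6 lines, a difference of -3.08 (limma adjusted p = 0.000161). The third probe set, Ta.14571.3.S1_x_at, was at 8.89 and 9.20 in SB33 and 8.78 to 9.30 in the other arrays (difference 0.06, limma adjusted p = 1). SB33 and SB146 were therefore high on one member of the cluster and low on another.

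**Figure D3:**
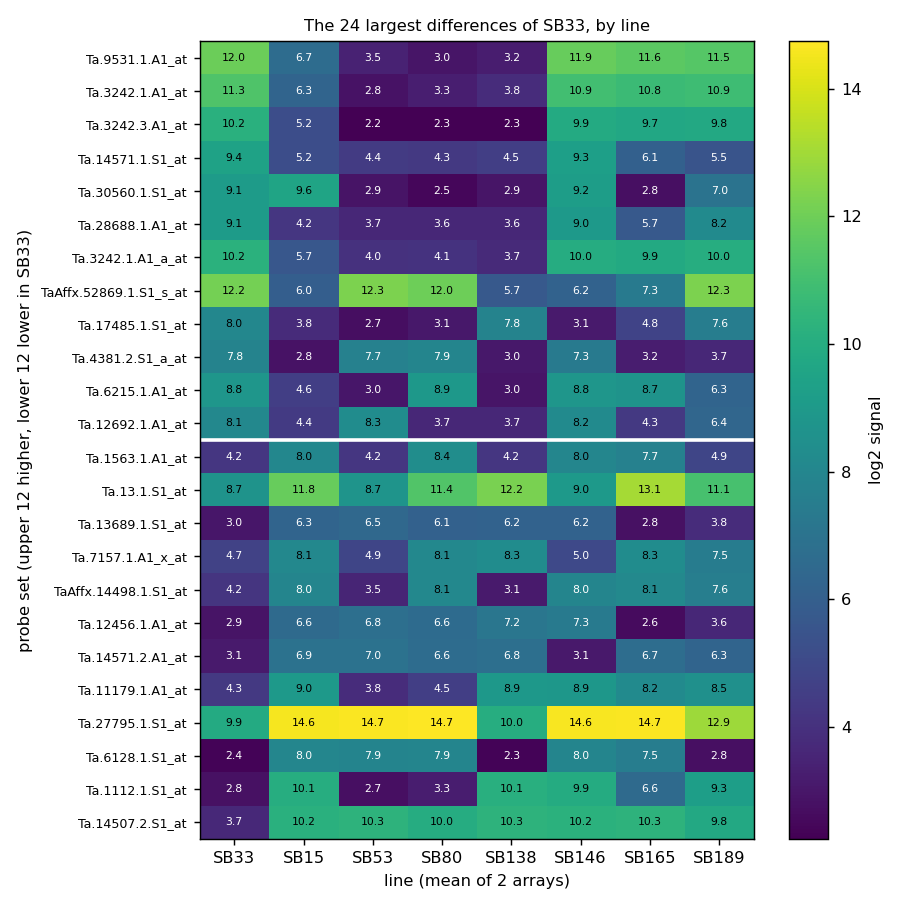
Mean log2 signal of the 2 arrays of each line for the 12 bright probe sets most higher in SB33 (above the white line) and the 12 most lower (below it), with SB33 in the left column and the colour scale at the right. SB15 is within 1 unit of SB33 in 1 row, SB146 in 13 and SB189 in 11, and only the bottom row has no line near SB33.

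Over the 24 probe sets with the largest differences (12 in each direction, 21 clusters), there were 15 different sets of lines within 1 log2 unit of SB33. SB146 lay within 1 unit of SB33 in 13 of the 24, SB189 in 11, SB53 in 9, SB165 in 7, SB80 in 5, SB138 in 4 and SB15 in 1. Most bright cluster mates of a called probe set were not called themselves. The 220 bright calls fell in 196 clusters, and 95 of the 220 had at least 1 other bright probe set in their cluster. Of the 200 distinct probe sets in that position, the called ones included, 44 (22%) were called themselves. These clusters were picked for holding a call, and their sets share sequence. The share is therefore not comparable with the 1.11% called among all bright probe sets. Some uncalled mates had nearly the same difference as the called set, such as Ta.22794.1.S1_x_at at 0.45 beside Ta.22794.1.S1_at at 0.62. In 19 of the 20 clusters with several bright calls all calls had the same direction, and the exception was Ta.14571.

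No probe set, bright or dim, was within 0.5 of the floor in both SB33 arrays with a mean of 5 or more in every other line, or the reverse. Both SB33 arrays were within 0.5 of the floor while at least 1 other line had a mean of 5 or more in 33 probe sets. Both were at 5 or more while at least 1 other line had a mean within 0.5 of the floor in 59. The same counts in the other lines ran between 20 and 69 for low signals and between 37 and 78 for high ones, so SB33 lay inside the range of the other lines for both.

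The pairs with single lines showed where SB33 differed most. SB80 gave the most bright differences, 418 (2.12%), of which 304 were higher and 114 lower in SB33. The fewest came from SB53, 239 (1.21%), with 139 higher and 100 lower. The counts were 281 for SB15 (1.42%), 280 for SB189 (1.42%), 275 for SB138 (1.39%), 272 for SB146 (1.38%) and 259 for SB165 (1.31%). SB33 was higher in 72.7% of its differences from SB80 and 70.7% of those from SB189, against 44.4% of those from SB165, the only pair in which more probe sets were lower than higher in SB33. The 7 pairs share the 2 SB33 arrays and are not independent, and the differences between these counts and shares were not tested. SB53 also had the smallest median absolute difference from SB33 over the bright probe sets, 0.103, and SB165 the largest, 0.141. These are differences between means of 2 arrays, so they cannot be set directly against the 0.148 between the 2 single SB33 arrays. This order of lines was not tested.

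**Figure D4:**
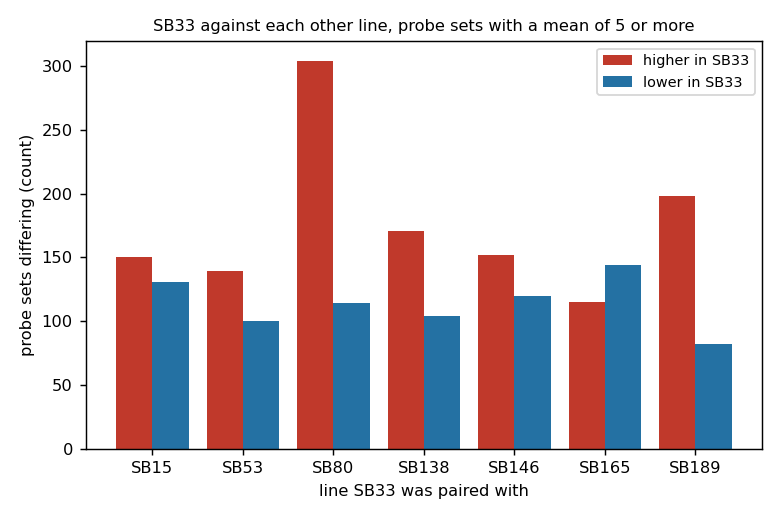
Number of bright probe sets that differed between SB33 and each other line (limma, adjusted p under 0.05 over all probe sets and pairs), with red bars for those higher and blue bars for those lower in SB33. The pair with SB80 has the tallest red bar at 304, and in the pair with SB165 the blue bar at 144 is taller than the red bar at 115.

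The share of annotated probe sets called in SB33 was near that of all bright probe sets. The annotation names 771 genes on 1273 probe sets, of which 690 probe sets were bright, and 6 of these 690 (0.87%) passed in SB33 against the other lines, all of them higher, where 1.11% of all bright probe sets passed. They belong to 5 genes, of which the symbols or synonyms name 6-FEH and TEF1, and the other 3 carry a locus number only. Both SB33 arrays lay outside all 14 others in 11 of the 690 (1.59%), where 1.31% of all bright probe sets did. The median difference over the annotated bright probe sets was -0.0036.

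Among the called annotated genes with a name, the fructan exohydrolase 6-FEH (LOC780575) is the closest to the theme of the series. It removes fructose units from fructan. On Ta.30950.1.A1_x_at it was at 9.80 and 9.85 in SB33, against a lowest of 8.27, a median of 8.91 and a highest of 10.06 in the other arrays. SB80 at 9.96 and 10.06 was above SB33, SB189 at 9.35 and 9.79 was just below it, and the other 5 lines lay between 8.27 and 9.08. The difference was 0.79 ± 0.118 (1.73-fold higher in SB33; limma adjusted p = 0.027). In pairs SB33 was higher than SB15 (1.50), SB138 (1.03), SB146 (0.92) and SB165 (1.23). The pair with SB53 did not pass (0.77, limma adjusted p = 0.0937), nor did those with SB80 (-0.19, limma adjusted p = 1) and SB189 (0.25, limma adjusted p = 0.829). The call was lost when either SB33 array was left out, with the replicate number as a block, after quantile normalization, with a minimum difference of 1 and with line means as units.

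The second bright probe set of 6-FEH, Ta.9641.1.A1_a_at, was at 7.06 and 7.08 in SB33, against a lowest of 4.76, a median of 6.40 and a highest of 8.09 in the other arrays. Here SB80 and SB189 were both above SB33, SB15 was the lowest line at 4.76 and 4.78, and the difference was 0.61 ± 0.307, which missed the threshold (limma adjusted p = 0.891). The third, TaAffx.93410.1.S1_at, was at 2.26 in both SB33 arrays, near the floor. The related gene 1-FEHw2 (LOC543441), also a fructan exohydrolase, was at 12.55 and 12.47 in SB33 and between 12.09 and 12.58 in the other arrays, which overlapped (difference 0.11, limma adjusted p = 1). Of the 3 bright probe sets for fructan hydrolysis 1 rose and 2 did not pass, with a median difference of 0.61, where 1.11% of all bright sets passed with a median over all of -0.00041. The 1 call is the one lost without either SB33 array. No gene of fructan synthesis was found by symbol or synonym in the annotation used here.

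**Figure D5:**
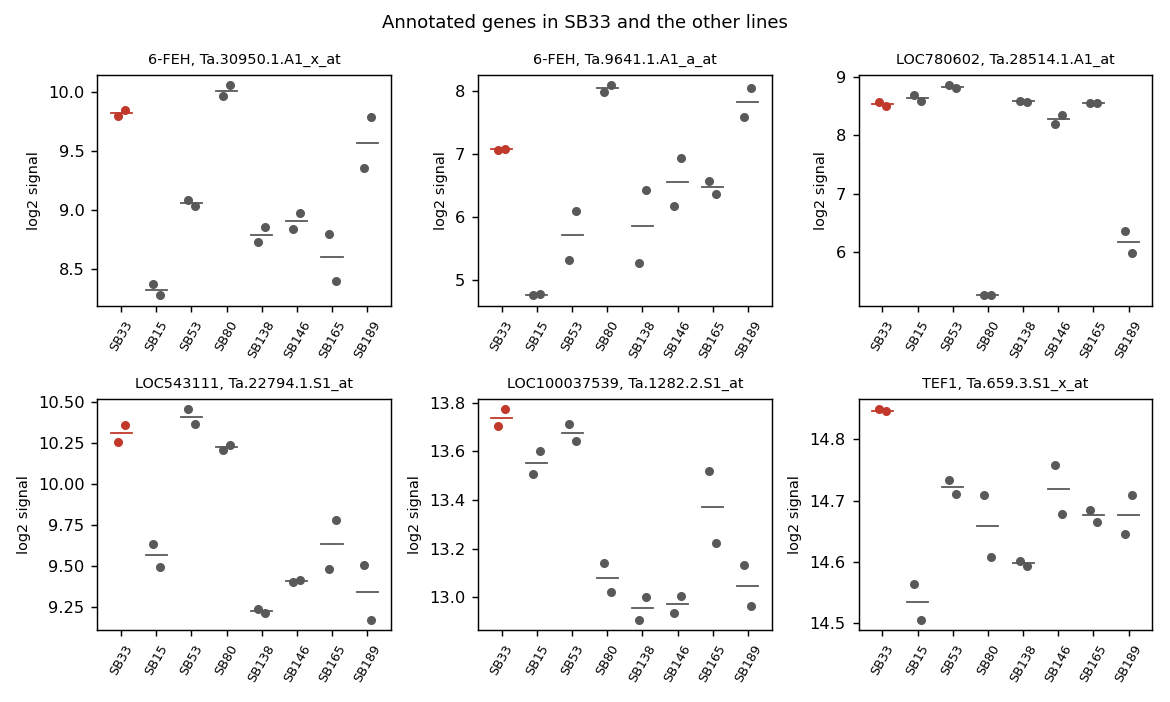
Log2 signal of each of the 16 arrays for 6 probe sets of annotated genes, with SB33 in red at the left of each panel, the other 7 lines in grey, and a short line at the mean of the 2 arrays of a line; the vertical axes do not start at 0. For 6-FEH the lines SB80 and SB189 lie near or above SB33 on both sets, for LOC780602 only SB80 and SB189 are low, and for TEF1 both SB33 arrays at 14.85 are above all others within a span of under 0.5.

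Of the 3 genes with a locus number only, LOC780602 had the lowest adjusted p. Its set Ta.28514.1.A1_at was at 8.56 and 8.49 in SB33, but SB33 ranked 5 of the 8 lines. SB80 (5.27 and 5.26) and SB189 (6.35 and 5.98) were low, and the other 5 lines lay between 8.20 and 8.85. The difference of 0.77 ± 0.0773 from the mean of the other lines (limma adjusted p = 0.00341) passed in pairs only against SB80 (3.26) and SB189 (2.36), and it no longer passed when line SB80 was left out. The other bright sets of this gene, Ta.28514.2.S1_s_at (0.18), Ta.5937.1.S1_x_at (0.01) and Ta.5937.2.S1_at (-0.06), did not pass.

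LOC543111 was higher in SB33 on Ta.22794.1.S1_at, at 10.26 and 10.36 in SB33, against a lowest of 9.17, a median of 9.50 and a highest of 10.45 in the other arrays. SB53 (10.45 and 10.36) overlapped with SB33, SB80 (10.21 and 10.24) lay just below it, and the other 5 lines were at 9.78 or less. The difference was 0.62 ± 0.0902 (limma adjusted p = 0.0239), and the call was lost without either SB33 array. Ta.22794.1.S1_x_at of the same gene differed by 0.45 (limma adjusted p = 0.102) and Ta.30622.1.S1_x_at by -0.04.

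LOC100037539 was higher on both of its bright sets. Ta.1282.2.S1_at was at 13.70 and 13.77 in SB33, against a lowest of 12.91, a median of 13.14 and a highest of 13.71 in the other arrays, with SB53 overlapping (13.71 and 13.64) and SB15 next (13.51 and 13.60). It differed by 0.50 ± 0.0742 (1.42-fold higher; limma adjusted p = 0.0262), and Ta.1282.2.S1_x_at by 0.49 (limma adjusted p = 0.0365). Both calls were lost without either SB33 array and without line SB80. LOC778422, on Ta.1282.3.S1_x_at of the same cluster, was at 12.45 and 12.60 in SB33, above the range of 11.75 to 12.36 in all other arrays, with a difference of 0.50 that missed the threshold (limma adjusted p = 0.116).

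TEF1 (LOC543386), by its name a translation elongation factor, showed the smallest of these differences. Ta.659.3.S1_x_at was at 14.85 in both SB33 arrays, against a lowest of 14.51, a median of 14.67 and a highest of 14.76 in the other arrays, so the groups did not overlap. The difference was 0.19 ± 0.0293 (1.14-fold higher; limma adjusted p = 0.0298), and the call was lost in 8 of 11 settings other than single arrays and without either SB33 array. On the other set of the gene, Ta.659.2.S1_x_at, SB33 was at 13.79 and 13.94, inside the range of 13.78 to 14.02 in the other arrays (difference -0.05, limma adjusted p = 1). A sixth gene, LOC542792, passed only on a set under the brightness limit, Ta.30336.1.S1_x_at. It was at 4.16 and 3.43 in SB33, below the range of 4.54 to 5.23 in the other arrays (difference -1.07 ± 0.17, limma adjusted p = 0.0355), and it is named after its values were seen. The call was lost with the replicate number as a block, with line means as units, without line SB80 or SB165, and without SB33 replicate 2.

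In 10 of the 11 annotated bright sets whose SB33 arrays did not overlap with any other, the difference did not pass. The widest was LOC100125701 on Ta.8629.1.A1_at, at 7.44 and 7.21 in SB33, against a lowest of 6.09, a median of 6.67 and a highest of 7.06 in the other arrays (difference 0.68 ± 0.179, limma adjusted p = 0.304). LOC542901 on TaAffx.139875.1.S1_at was at 5.84 and 5.98 in SB33, with a median of 5.41 and a highest of 5.81 in the other arrays (difference 0.55, limma adjusted p = 0.874), while both of its brighter sets differed by -0.12. LOC542872 on Ta.4256.1.S1_at was at 7.68 and 7.58 in SB33, above the other arrays at 6.61 to 7.49 (difference 0.49, limma adjusted p = 0.11). The only one below all others was LOC606318 on Ta.22579.1.S1_at, at 6.80 and 6.74 in SB33 and 6.88 to 7.59 in the other arrays (difference -0.30, limma adjusted p = 0.604). LOC778422 is described above, and the remaining sets had smaller differences, for LOC543178 (0.31), LOC543033 (0.30), LOC606341 (0.15), LOC543372 (0.14) and LOC542993 (0.02).

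Called genes with a locus number only are given no role here, so the gene lists do not place them. None of the 7 genes listed for photosynthesis and carbon fixation was called in SB33. With 1.11% of all bright sets called, a count of 0 among their 17 bright sets from 7 genes is near the background. The median difference was -0.023 with a range from -0.178 to 0.488. PsbP, an extrinsic subunit of photosystem II, was at 14.87 and 14.94 in SB33 and 14.93 to 15.07 in the other arrays on Ta.85.1.S1_at (difference -0.09, limma adjusted p = 0.207). PsbO, another extrinsic subunit, was at 14.62 and 14.83 in SB33 and 14.71 to 15.02 in the other arrays (-0.12, limma adjusted p = 1). PRK, the phosphoribulokinase of the Calvin cycle, was at 14.82 and 14.98 in SB33 and 14.80 to 15.04 in the other arrays (-0.05, limma adjusted p = 1). The widest difference of the list was on TaAffx.128896.17.S1_s_at for rbcl, where the SB33 arrays were uneven at 11.78 and 10.63, against 10.07 to 11.08 in the other arrays (0.49, limma adjusted p = 0.933). SB33 overlapped with the other lines in each of these 4 sets.

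The other lists of annotated genes gave 1 call between them, that of TEF1 among the 8 bright sets for translation, where 1.11% of all bright sets passed. No bright set passed for starch metabolism (2 sets), glycolysis (2), tubulin (7), histones and high-mobility-group proteins (6), defence (3), antioxidant enzymes (8), gibberellin synthesis (2), methyl transfer (4), membrane transport (4), endosperm (2) or anther and pollen (2). Among starch genes AGP-S, for the small subunit of ADP-glucose pyrophosphorylase, differed by -0.08, and among antioxidant genes CAT1, a catalase, by -0.03. The widest differences without a call were those of tubb1, a beta-tubulin, whose mean was 8.27 in SB33 and 7.82 elsewhere (difference 0.45, limma adjusted p = 0.348), and of GA20ox1d, a gibberellin 20-oxidase, whose mean was 5.15 in SB33 and 5.60 elsewhere on Ta.141.1.S1_at (difference -0.45, limma adjusted p = 0.413). XIP-I, a xylanase inhibitor, was 0.27 and 0.42 higher on its 2 sets and PR5, a pathogenesis-related protein, 0.26 lower (difference -0.26), and none of these passed. No set was bright among 5 for serpins and 11 for dehydration, cold and heat response.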

How the data were processed

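Biotin-labelled total RNA of flag leaves was measured on 16 Affymetrix wheat arrays. The deposited log2 values were made by the authors with RMA and GCRMA, per the submitters' processing notes, which give no version and do not say which method made the table. Both correct background, normalize between arrays and give 1 value per probe set. Detection calls were not used here.

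In R 4.3.3 with limma 3.58.1 (lmFit and eBayes), 1 fit over 61115 probe sets and 8 lines gave SB33 minus the mean of the other 7 line means and SB33 minus each line. It had 8 residual and 0.39 prior degrees of freedom. The errors in it come from the spread between the 2 arrays of a line, not from the spread between lines. Benjamini-Hochberg adjustment ran over all probe sets, or over all probe sets and the 7 pairs together, and the threshold was 0.05. The log2 values were not changed before the fit. Of the probe sets, 11747 were constant. The steps were tested on simulated data.

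Gene symbols come from the platform annotation, updated through RefSeq for IWGSC CS RefSeq v2.1, where 1 of the 1273 annotated probe sets had no match and 102 genes have a name or synonym. No coordinates or sequences are given. Named were the annotated genes called in SB33 or with arrays that do not overlap, list members and, of unnamed sets, the 2 most higher and 2 most lower. Others are said to be chosen after their values were seen. The part described, the gene lists and the rules were chosen with earlier results of these data known. Alternatives covered filters, normalization, priors, weights, a replicate block, a minimum difference, line means as units, and leaving out 2 lines or each array.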

Additional observations from a re-analysis of the deposited data

How the results depend on the processing

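The 220 bright calls became 417 with the fit over probe sets with a mean of 5 or more, 382 with a mean of 3 or more and 338 with array medians subtracted, and 107 with a minimum difference of 1. With the 7 other line means as units of spread 39 bright probe sets passed, of which 8 were among the 220, and over all probe sets 1422 passed in place of 361, 95.8% of them higher. A minimum difference of 1 left 167 of the 361 and 856 of the 1730 probe sets called in at least 1 pair. Leaving out 1 array at a time gave 228 to 321 bright calls, 710 to 1476 over all probe sets and 2142 to 3354 in pairs. Every one of these 16 runs moved the count over all probe sets by more than 1.5 times, and for pairs so did those without SB33 replicate 2, SB15 replicate 2, SB53 replicate 1, SB146 replicate 2, SB165 replicate 2 or either array of SB80, SB138 or SB189. Without SB33 replicate 1, 152 of the 220 bright calls remained among 228, and without SB33 replicate 2, 141 among 235. The cause was not tested. Among the called probe sets, the share higher in SB33 moved far more between these runs over all probe sets than over bright ones. The called probe sets changed from run to run, so these shares do not show whether any probe set changed direction. Other settings kept the counts within 1.5 times: quantile normalization gave 219 bright calls, a trend with a robust prior 188, array weights 250, no SB80 arrays 167 and no SB165 arrays 208. With the field replicate number as a block, 211 bright calls and 331 in all passed, with 1590 in pairs, and the calls of 6-FEH, the second LOC100037539 set and LOC542792 were lost. Same-numbered arrays of the 28 pairs of lines correlated at -0.21 to 0.375 in their deviations (median 0.136, over 0.1 in 16). The main fit did not take the numbers as pairing, and whether same-numbered arrays shared an effect was not tested. Small differences that did not pass could change sign without 1 SB33 array. The SB33 arrays of Ta.3242.2.S1_at, at 9.37 and 9.69, lay on either side of the other-line mean of 9.51. None of 121 single probe set results was scored as reversed in the 27 settings run. The 24 largest unnamed differences passed in all of them but line means as units, where only Ta.14507.2.S1_at did, except that TaAffx.14498.1.S1_at was also lost without line SB80, line SB165 or SB33 replicate 1. Of the annotated calls, TEF1 was lost in 8 of 11 settings other than single arrays. Values near the floor of 2.25 and 2 arrays per line limit what can be told of dim probe sets.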
